A study of Bos taurus with 20 samples.

Results

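Genes of the pre-mRNA splicing machinery were followed in bovine embryos at day 14. They were the protein-coding rows of the deposited table whose symbols begin with SRSF, HNRNP, SF3A or SF3B, SNRP, U2AF, PRPF or LSM, the gene families behind SR proteins, hnRNPs, small nuclear ribonucleoproteins (snRNPs) and their cofactors. This rule found 78 genes of 15542: 20 HNRNP, 13 PRPF, 11 SRSF, 11 SNRP, 11 LSM, 9 SF3A or SF3B and 3 U2AF genes. All 78 had at least 10 reads in at least 2 libraries and were among the 10599 genes tested.

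The spliceosome removes introns in steps carried out by snRNPs, each a small nuclear RNA wrapped in a ring of Sm or LSM proteins with a few specific partners. U1 snRNP recognises the start of an intron, and U2AF and U2 snRNP, with its SF3A and SF3B complexes, recognise its end and branch point. The U4, U6 and U5 snRNPs then join as a preformed particle, in which PRPF proteins are found. SR proteins mostly promote the use of nearby splice sites, and hnRNPs coat the transcript and often oppose them, so the balance between these families shapes alternative splicing.

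RNA came from 2 vitrified whole embryos, 6 fresh whole embryos, 7 trophectoderm (TE) isolates of vitrified embryos and 5 TE isolates of fresh embryos. All came from embryos flushed from the uterus at day 14. Vitrified embryos had been cryopreserved by very rapid cooling, which forms a glass instead of ice and fresh ones had not, and TE is the outer epithelium of the embryo, from which the placenta forms. The labels give no strain, age or batch. They tie no sample to an embryo, so samples of a group may share one, and p-values reflect the spread between these samples alone, which may be partly technical. Levels are RPKM, the reads of a gene divided by its length in kilobases and by the library's reads in M (1 M is 1000000). The kilobases are the whole genomic span of a gene, introns included (median 10.9 kb for these genes, 16.8 kb for all), so levels of different genes are not per length of transcript.

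Libraries held 6.01 to 14.53 M reads, and the 78 genes took 33512 to 161290 of them per library. The 5 fresh TE libraries stood apart: the genes of the table took 38.0 ± 2.83% of their reads (SD, n = 5), against 57.5 to 63.9% in the other 15 libraries. Messenger RNAs from the mitochondrial genome made up 8.04 ± 1.44% of table reads in vitrified TE (n = 7) and 1.23 ± 0.144% in fresh TE. Fresh TE 1 and 2 differed by little more than counting noise (a chi-square of 1.88 for each degree of freedom), and so did fresh TE 3 and 4 (1.48). They were kept as separate samples, and an alternative averaged each pair. All 13 TE markers were read in each of the 4 groups, with a summed level of 12169 to 17140 reads per M in vitrified TE and 13028 to 15994 in fresh TE. Single TE markers differed in both directions, by −4.67 to 3.43 on log2(RPKM + 1), vitrified over fresh TE. Similar sums thus do not mean similar levels of each TE marker. The 7 epiblast markers found summed to 38.6 to 58.8 reads per M in vitrified TE, against 5.38 to 11.5 in fresh TE, and the 7 hypoblast markers found to 1136 to 2401 against 285 to 609. In fresh whole embryos these sums were 17.3 to 60.1 and 1076 to 1899, ranges that vitrified TE overlapped and fresh TE did not. Blood and immune markers (6 found) summed to 9.09 to 17.5 reads per M in vitrified TE and 27.8 to 41.7 in fresh TE. Endometrial markers (5 found) summed to 4.94 to 19.96 in vitrified TE, where HOXA11 was at 0, and to 5.33 to 12.4 in fresh TE. The part of these library and marker differences in the results on TE was not tested. Fewer cells of a kind and less RNA per cell cannot be told apart in such samples.

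The first comparison set the 7 vitrified against the 5 fresh TE samples. Of the 78 genes, 60 were higher in vitrified TE, 9 were lower and 9 did not pass an adjusted p of 0.05 (limma on log2(RPKM + 1), Benjamini-Hochberg over 10599 genes). In shares, 76.9% were higher and 11.5% lower, beside 69.0% higher and 6.66% lower among all tested genes, so a rise of most of them was shared with the table as a whole. In 63 of the 78 (80.8%) the ranges of the groups did not overlap, beside 58.6% of all tested genes, of which 75.6% were called in either direction. Together the 78 genes took 1.003 ± 0.0666% of all reads in vitrified TE and 0.637 ± 0.0588% in fresh TE. Of the reads in table genes, they took 1.71 ± 0.113% in vitrified TE and 1.67 ± 0.0539% in fresh TE, 2 values that lay within their spread of each other. On a log2 scale of reads per M + 1, the median difference was 0.87 for the 78 genes and 0.86 for all genes.

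Because so many genes moved, each call was followed under 4 scalings of the libraries: as deposited, per M reads in table genes, by median ratios and by quantiles. Median-ratio scaling took the median difference of all genes on log2(RPKM + 1) to 0.01, against 0.18 as deposited, and that of the 78 genes to −0.16, against 0.70. The split of the 78 calls then was 28 higher and 32 lower, beside 35.2% higher and 27.4% lower of all genes. Per M table reads it was 36 higher and 17 lower, beside 49.4% and 15.7% of all genes. Under quantile scaling it was 27 higher and 30 lower, beside 26.2% and 38.7%. Under all 4 scalings 26 of the 78 were higher and 9 were lower, 33.3% and 11.5%, beside 25.4% and 6.66% of all tested genes. These 35 genes are described as holding their direction, and the others are described as deposited. For the lower genes the scalings were no further check, since all 706 tested genes called lower as deposited also held.

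**Figure D1:**
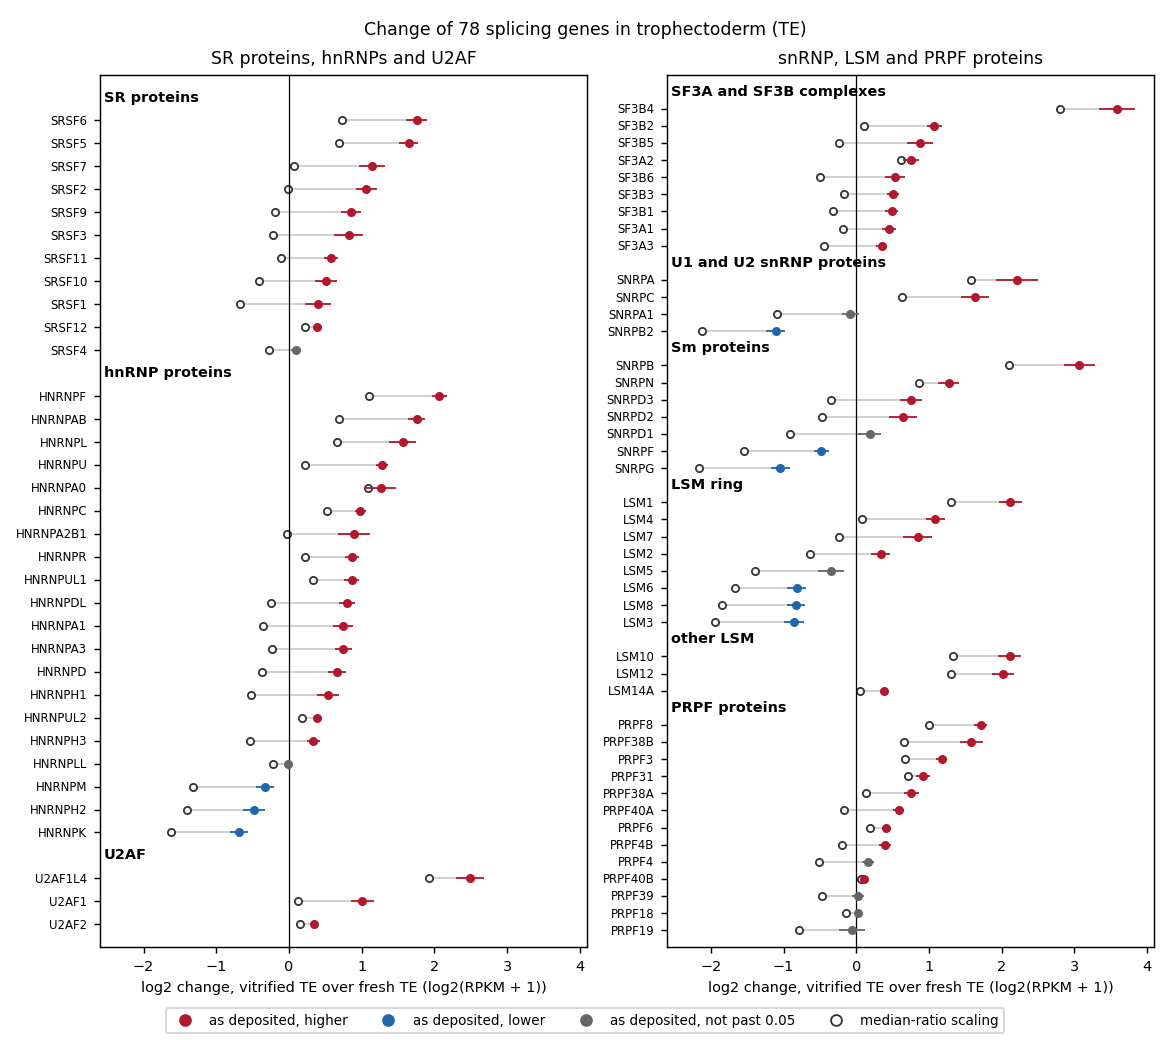
Difference of vitrified TE over fresh TE (n = 7 and 5) for the 78 splicing genes by role, on log2(RPKM + 1). Filled points are the deposited scale with standard errors, open points the estimate after median-ratio scaling. SF3B4 (3.59) and SNRPB (3.07) stand furthest to the right and SNRPB2 (−1.11) and SNRPG (−1.05) furthest to the left.

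Among SR proteins, 10 of 11 genes were higher in vitrified TE, beside 69.0% of all tested genes. SRSF4 did not pass (0.506 ± 0.0969 RPKM in vitrified TE and 0.408 ± 0.084 in fresh TE). SRSF6, SRSF5 and SRSF12 held the rise under all 4 scalings, as did 25.4% of all tested genes. SRSF6, which binds exonic enhancers, had 21.3, 26.1 and 33.8 RPKM (lowest, median and highest) in vitrified TE, against 9.83, 8.64, 7.35, 6.89 and 4.80 RPKM in fresh TE. The groups did not overlap, and the difference was 1.76 on the log2 scale (SE 0.14, adjusted p = 2.8e-09). SRSF5 had 11.5, 15.5 and 18.2 RPKM in vitrified TE, against 3.92, 3.39, 3.55, 4.58 and 4.37 in fresh TE, a mean 3.71 times as high. SRSF2, which collects in nuclear speckles, averaged 43.5 ± 4.99 RPKM in vitrified TE and 20.5 ± 4.25 in fresh TE (1.06, SE 0.15, adjusted p = 2.5e-06). Under median-ratio scaling its difference was −0.01 (adjusted p = 0.95). SRSF2 overlaps METTL23 on the opposite strand, and no source used here says whether reads were counted by strand.

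The hnRNPs held both directions. Of 20 genes, 16 were higher and 3 lower in vitrified TE, and 8 and 3 of these held under all 4 scalings. Of all tested genes 69.0% were higher and 6.66% lower, and 25.4% and 6.66% held. HNRNPF, which binds runs of G, had the smallest p of all 78 genes, with 16.6, 19.1 and 25.8 RPKM in vitrified TE against 4.95, 4.22, 3.76, 3.80 and 3.53 in fresh TE. Its difference was 2.07 (SE 0.11, adjusted p = 9.3e-12), with every vitrified TE sample above every fresh one. HNRNPAB averaged 53.8 ± 4.93 RPKM in vitrified TE and 15.4 ± 2.67 in fresh TE, and HNRNPU, a nuclear scaffold protein, 30.4 ± 2.14 and 11.95 ± 1.11 RPKM in vitrified and fresh TE. Their differences were 1.75 (adjusted p = 2.5e-10) and 1.28 (adjusted p = 1.6e-10). HNRNPA0 was the only one of the 78 with no read in any fresh TE library, over 34.0 M reads. In vitrified TE it had 0.693, 1.21 and 2.47 RPKM, 5 to 22 reads per library, a mean at least 15.8-fold higher than the limit of 3 reads over the 5 fresh TE libraries together. The annotated row spans 933 bp.

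HNRNPK, HNRNPH2 and HNRNPM went the other way. HNRNPK, which binds C-rich RNA, had 2.74, 3.17 and 3.54 RPKM in vitrified TE, against 7.03, 6.04, 5.65, 5.92 and 4.002 in fresh TE. All vitrified samples lay below all fresh ones, and the difference was −0.68 (SE 0.12, adjusted p = 6.2e-05). HNRNPH2, a close relative of HNRNPF, averaged 3.17 ± 0.615 RPKM in vitrified TE and 4.79 ± 0.556 in fresh TE (−0.48, adjusted p = 0.0092). HNRNPM averaged 5.89 ± 0.534 and 7.66 ± 0.986 RPKM in vitrified and fresh TE, and its call was the least firm of the 9. Its adjusted p was 0.019, but 0.054 without fresh TE 3, 0.051 without fresh TE 4 and 0.094 with the near-identical fresh TE libraries averaged. Many HNRNP genes have processed copies in mammalian genomes, so the gene of origin of some reads is uncertain.

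Recognition of the end of an intron was represented by the U2AF, SF3A and SF3B genes. All 12 were higher in vitrified TE as deposited, as were 69.0% of all tested genes. U2AF1L4, SF3B4 and SF3A2 held under all 4 scalings, as did 25.4% of all tested genes. SF3B4, an SF3B subunit that contacts the transcript near the branch point, had 21.1, 25.3 and 31.6 RPKM in vitrified TE, against 1.89, 1.40, 1.07, 1.12 and 0.610 in fresh TE. The difference of 3.59 (SE 0.24, adjusted p = 3.0e-10) was the largest of the 78, and the ratio of means was 20.8. The differences of its complex partners were smaller. SF3B2 averaged 10.2 ± 1.38 RPKM in vitrified TE and 4.34 ± 0.604 in fresh TE (1.07, adjusted p = 3.2e-08), and SF3B1 had a difference of 0.49 and SF3B6 one of 0.53. SF3B2 did not pass under median-ratio scaling (0.11, adjusted p = 0.41).

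SF3A2, a subunit of the SF3A complex, was close to the detection limit in fresh TE, with 0 to 2 reads per library and 5 in all. Vitrified TE libraries had 22 to 103 reads of it, or 0.332, 0.576 and 1.30 RPKM. The difference on the log2 scale was 0.75 (SE 0.12, adjusted p = 9.8e-06), a scale that understates changes at such levels. Like HNRNPA0, SF3A2 reached 10 reads in vitrified libraries only, so its call is a description and not support. U2AF1 and U2AF2 encode the small and large U2AF subunits, and U2AF1L4 is a paralog of U2AF1. U2AF1L4 had 4.80, 7.17 and 9.93 RPKM in vitrified TE, against 0.630, 0.216, 0.551, 0.416 and 0.452 in fresh TE (2.49, SE 0.19, adjusted p = 1.4e-09). U2AF1 averaged 6.49 ± 0.557 RPKM in vitrified TE and 2.80 ± 0.882 in fresh TE, and U2AF2 0.416 ± 0.125 and 0.113 ± 0.0438. Both passed as deposited (1.01, adjusted p = 1.4e-05, and 0.34, adjusted p = 6.1e-06), but under quantile scaling their adjusted p were 0.64 and 0.12.

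The Sm proteins form a common ring on most spliceosomal RNAs, yet their messengers did not move together. SNRPB, which encodes the SmB core proteins, had 32.2, 37.5 and 42.4 RPKM in vitrified TE, against 3.97, 3.73, 3.01, 3.54 and 3.46 in fresh TE. SNRPG, which encodes SmG of the same ring, had 707, 818 and 899 RPKM in vitrified TE, against 1436, 1393, 1876, 1905 and 1683 in fresh TE. Neither gene's groups overlapped. The difference was 3.07 for SNRPB (SE 0.21, adjusted p = 3.6e-10) and −1.05 for SNRPG (SE 0.13, adjusted p = 6.4e-07). SNRPN, a paralog of SNRPB that is imprinted in human and mouse, averaged 2.08 ± 0.387 RPKM in vitrified TE and 0.271 ± 0.0719 in fresh TE (1.27, adjusted p = 2.1e-07). SNRPF (SmF) had 13.6, 14.7 and 16.6 RPKM in vitrified TE and 19.2, 17.3, 23.4, 25.5 and 20.3 in fresh TE (−0.48, adjusted p = 5.2e-04). SNRPD2 and SNRPD3 were higher as deposited (0.64 and 0.75) and SNRPD1 did not pass (0.18, adjusted p = 0.31). The proteins of SNRPB and SNRPN are nearly identical, and small Sm genes have processed copies, so the origin of their reads is uncertain. The SNRPG row covers only 362 bp of chromosome 19, from 12231223 to 12231584 on the UMD3.1 assembly, the shortest span among the genes named here.

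The same split appeared in the proteins specific to U1 and U2 snRNP. SNRPA, a U1 protein, averaged 6.56 ± 1.54 RPKM in vitrified TE and 0.615 ± 0.196 in fresh TE, and SNRPC, which helps U1 bind the start of the intron, averaged 21.7 ± 3.80 and 6.24 ± 0.838 RPKM in vitrified and fresh TE. Their differences were 2.21 (adjusted p = 1.5e-06) and 1.64 (adjusted p = 3.5e-07). SNRPB2 of U2 snRNP had 4.84, 5.21 and 6.60 RPKM in vitrified TE, against 13.9, 12.4, 14.1, 14.3 and 9.54 in fresh TE. That was the largest fall of the 78 (−1.11, SE 0.13, adjusted p = 2.3e-07), without overlap of the groups. SNRPA1, its partner in U2 snRNP, stood at 8.47 ± 1.12 and 9.02 ± 1.16 RPKM in vitrified and fresh TE and did not pass (adjusted p = 0.53).

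LSM2 to LSM8 form the ring on U6 RNA, and with LSM1 in place of LSM8 the ring acts in messenger RNA decay in the cytoplasm. LSM1 had 8.20, 10.2 and 11.7 RPKM in vitrified TE, against 2.09, 1.39, 1.17, 1.54 and 1.64 in fresh TE (2.12, SE 0.16, adjusted p = 7.6e-10). LSM8, its counterpart on U6, had 5.58, 6.25 and 6.68 RPKM in vitrified TE, against 11.8, 9.69, 12.03, 13.2 and 12.4 in fresh TE (−0.83, SE 0.12, adjusted p = 5.3e-06). So the 2 subunits by which these rings differ went in opposite directions, each without overlap of the groups and each under all 4 scalings. As for all lower calls in this comparison, the scalings were no further check for LSM8. LSM3 and LSM6, shared by both rings, fell with LSM8. LSM3 had 30.3, 33.9 and 37.2 RPKM in vitrified TE, against 46.8, 49.96, 66.6, 69.0 and 86.5 in fresh TE (−0.85, adjusted p = 1.2e-05). LSM6 averaged 1.67 ± 0.540 RPKM in vitrified TE and 3.66 ± 0.565 in fresh TE (−0.82, adjusted p = 1.7e-05). LSM4 was higher as deposited (1.09), with 13.4 to 16.4 RPKM in vitrified TE and 5.67 to 6.82 in fresh TE, as were LSM2 (0.33) and LSM7 (0.84), while LSM5 did not pass (−0.35, adjusted p = 0.083). Outside these rings, LSM10, a subunit of the U7 snRNP that processes histone messengers, averaged 8.74 ± 0.915 RPKM in vitrified TE and 1.25 ± 0.211 in fresh TE (2.11, adjusted p = 9.7e-10). LSM12 averaged 6.98 ± 0.727 and 0.972 ± 0.229 RPKM in vitrified and fresh TE (2.02, adjusted p = 9.0e-10).

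Of 13 PRPF genes 9 were higher in vitrified TE, near the share of 69.0% among all tested genes. The 4 that did not pass were PRPF4, PRPF18, PRPF19 and PRPF39. PRPF8, which forms the core of U5 snRNP around the catalytic centre, had 4.69, 5.41 and 6.15 RPKM in vitrified TE, against 1.203, 1.01, 0.794, 0.975 and 0.826 in fresh TE. The difference was 1.71 (SE 0.091, adjusted p = 1.4e-11), without overlap. PRPF3, a U4/U6 protein, had 2.03, 2.19 and 2.88 RPKM in vitrified TE and 0.313, 0.268, 0.649, 0.620 and 0.441 in fresh TE (1.18, adjusted p = 1.9e-10). PRPF6, which bridges U5 and U4/U6, averaged 0.513 ± 0.0778 and 0.139 ± 0.0411 RPKM in vitrified and fresh TE (0.41, adjusted p = 2.9e-08). These 3, PRPF31 and PRPF38B held under all 4 scalings, beside 25.4% of all tested genes.

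**Figure D2:**
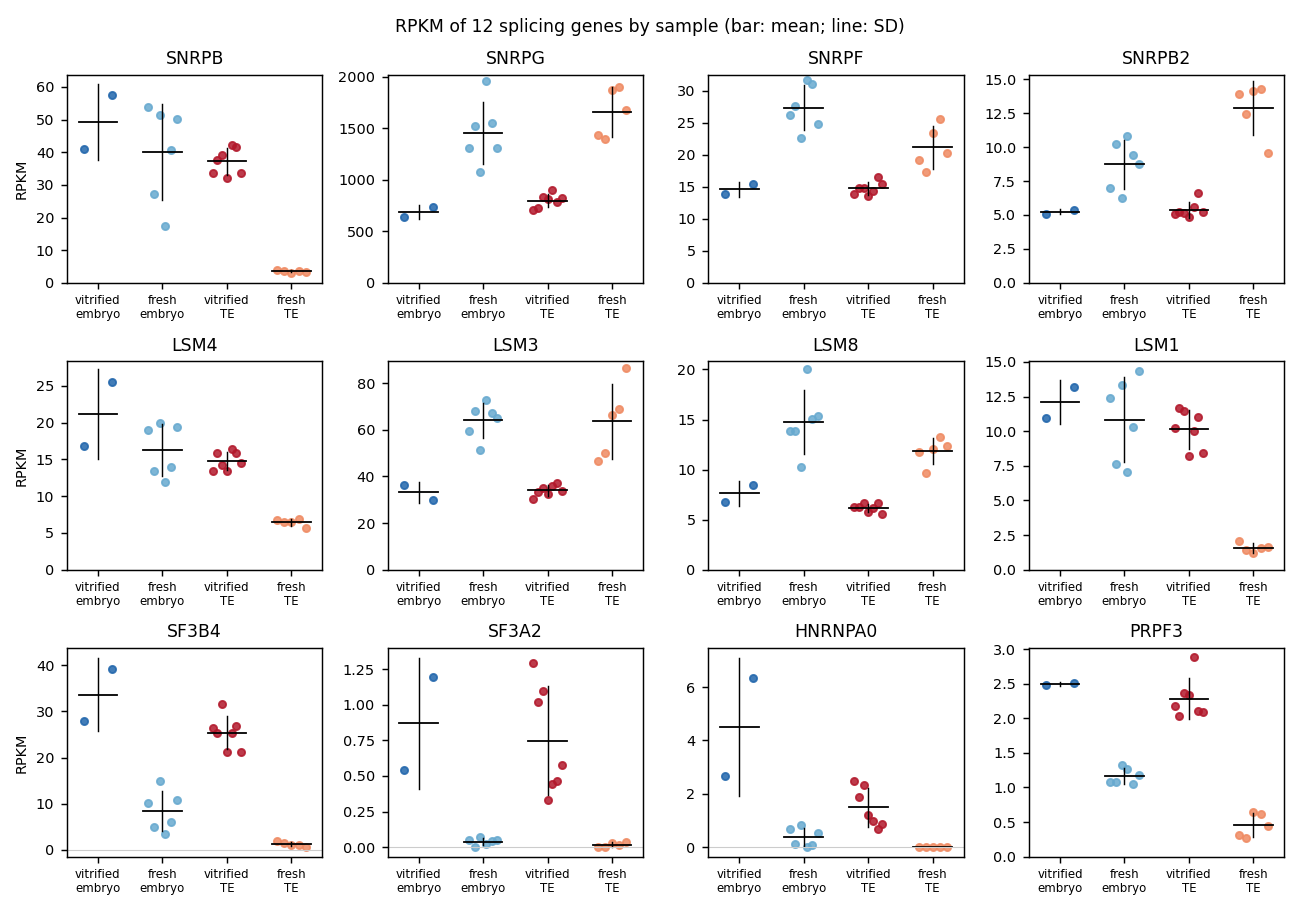
RPKM of 12 splicing genes in each sample (points) with the group mean (bar) and SD (line), for vitrified embryos (n = 2), fresh embryos (n = 6), vitrified TE (n = 7) and fresh TE (n = 5). SNRPB, LSM1, LSM4 and SF3B4 are lowest in fresh TE, and SNRPG, SNRPF, SNRPB2, LSM3 and LSM8 are lower in both vitrified groups than in both fresh groups.

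Ratios of genes within a library do not depend on a factor that scales the whole library, and the gene pairs below were chosen after their values were seen, so they are given without a test. SNRPB over SNRPG was 0.0709 ± 0.00986 in vitrified embryos, 0.0300 ± 0.0149 in fresh embryos, 0.0467 ± 0.00504 in vitrified TE and 0.00219 ± 0.000510 in fresh TE. SF3B4 over SF3B6 was 1.66 ± 0.300, 0.295 ± 0.168, 1.73 ± 0.240 and 0.132 ± 0.0691 in the same order of groups. All vitrified libraries of either kind had an SF3B4 ratio of at least 1.34, and no fresh library had one above 0.582. LSM4 over LSM3 was 0.658 ± 0.275 in vitrified embryos, 0.262 ± 0.0859 in fresh embryos, 0.436 ± 0.0248 in vitrified TE and 0.107 ± 0.0306 in fresh TE. SNRPC over SNRPB2 was 5.91 ± 0.108, 3.40 ± 1.46, 4.05 ± 0.717 and 0.488 ± 0.0387. In this ratio and in SNRPB over SNRPG, fresh embryos overlapped vitrified TE, and fresh TE lay below both.

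**Figure D3:**
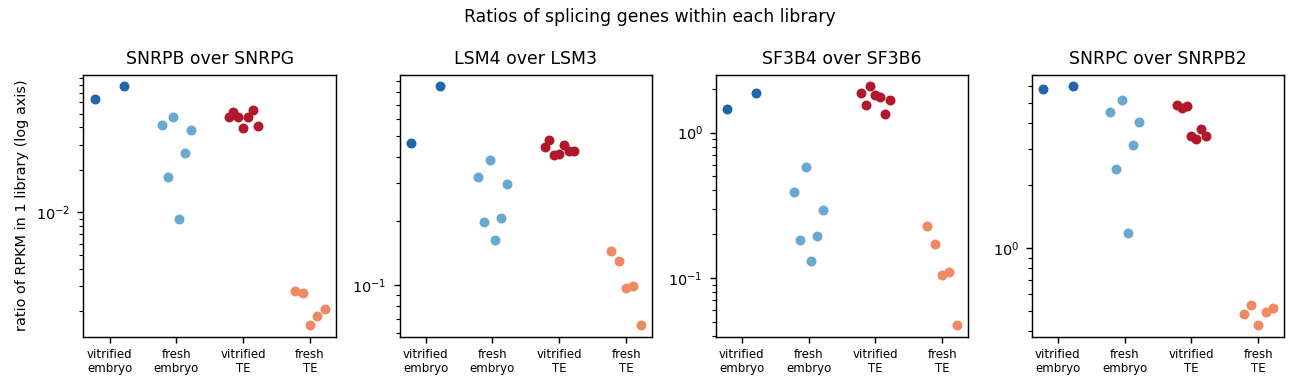
Ratio of RPKM of 2 splicing genes within each library (1 point per library, log axis) in the 4 groups. The ratio of SF3B4 to SF3B6 is 1.34 or more in the vitrified libraries and 0.582 or less in the fresh ones.

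Whole embryos gave a second comparison of vitrified with fresh, which shares no sample with that in TE but has only 2 vitrified samples. Of the 78 genes, 16 were higher in vitrified embryos, 5 were lower and 57 did not pass. The 21 calls are 26.9% of the genes, where 30.9% of all tested genes were called. By direction, the shares of 20.5% and 6.41% stand beside 26.9% higher and 3.94% lower among all tested genes. Under all 4 scalings 4 genes were higher (HNRNPA0, PRPF3, SF3A2 and SF3B4), 5.13% against 7.87% of all genes, and 5 were lower (SNRPG, SNRPF, SNRPB2, LSM3 and LSM8), 6.41% against 3.11%. Fewer genes held in total when either vitrified embryo was left out, and fewest without vitrified embryo 2. This was so for the 78 genes and for all tested genes alike. The split of the calls moved with the scaling, to 13 higher and 7 lower per M table reads (21.0% and 4.31% of all genes), 4 and 8 by median ratios (10.6% and 6.99%) and 5 and 8 by quantiles (8.68% and 6.14%). All 9 genes were called in the same direction under all 4 scalings in TE, a joint count not made over all tested genes. For the 5 lower ones the scalings in TE were no further check. The 78 genes took 1.82 ± 0.118% of table reads in vitrified embryos and 1.87 ± 0.0391% in fresh embryos. The TE markers summed to 13923 to 16487 reads per M in vitrified embryos and 8405 to 11405 in fresh embryos, epiblast markers to 27.9 to 165 and 17.3 to 60.1, and hypoblast markers to 399 to 1331 and 1076 to 1899. The part of these differences in the results was not tested.

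Of the genes that were lower, SNRPG had 641 and 738 RPKM in the 2 vitrified embryos, and 1076, 1417 and 1957 (lowest, median and highest) in fresh embryos. The difference of −1.05 (SE 0.18, adjusted p = 3.4e-04) was of the same size as that in TE. SNRPF had 13.8 and 15.4 RPKM in vitrified embryos, against 22.7, 26.9 and 31.6 in fresh embryos (−0.85, adjusted p = 4.0e-04). LSM3 had 36.4 and 29.9 RPKM in vitrified embryos and 51.6, 66.4 and 72.9 in fresh embryos (−0.93, adjusted p = 0.0012). LSM8 had 6.75 and 8.49 RPKM in vitrified embryos and 10.3, 14.4 and 20.1 in fresh embryos (−0.85, adjusted p = 0.0011). In all of these the 2 vitrified embryos lay below all 6 fresh ones, and the calls passed without either of the vitrified embryos. SNRPB2 also lay below, at 5.10 and 5.38 RPKM in vitrified embryos against 6.23, 9.10 and 10.8 in fresh ones. Its difference was −0.62 (adjusted p = 0.012), but the adjusted p was 0.073 without vitrified embryo 1 and 0.085 without vitrified embryo 2.

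Of the genes that were higher, SF3B4 had 28.0 and 39.3 RPKM in vitrified embryos and 3.44, 8.17 and 14.9 in fresh embryos (1.99, SE 0.34, adjusted p = 3.6e-04). HNRNPA0 had 2.67 and 6.34 RPKM in vitrified embryos and 0, 0.325 and 0.828 in fresh embryos, 21 and 53 reads against 0 to 9 (1.96, SE 0.28, adjusted p = 9.7e-05). PRPF3 had 2.48 and 2.52 RPKM in vitrified embryos and 1.06, 1.13 and 1.33 in fresh embryos (0.70, adjusted p = 1.6e-04). SF3A2 had 0.543 and 1.196 RPKM in vitrified embryos, against 0, 0.0451 and 0.0723 in fresh embryos (0.83, adjusted p = 9.3e-04), with an adjusted p of 0.071 without vitrified embryo 2. Both vitrified embryos lay above all 6 fresh embryos in these 4 genes. Calls were fewer without vitrified embryo 2, among the 78 genes and among all tested genes alike. That embryo was above vitrified embryo 1 in 69 of the 78 genes, a count not made over all tested genes. The genes of the table took 63.9% of its reads and 60.5% of those of vitrified embryo 1. Without vitrified embryo 2 the median difference was 0.06 for the 78 genes and 0.04 for all tested genes. Without vitrified embryo 1 these medians were 0.28 and 0.07.

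In both TE and whole embryos, 16 genes were higher and 5 lower in vitrified samples. A further 44 were higher and 4 lower (HNRNPH2, HNRNPK, HNRNPM and LSM6) in TE alone as called, and 9 passed in neither. The same joint count was not made over all tested genes. Of all tested genes, 69.0% were higher and 6.66% lower in vitrified TE, and 26.9% and 3.94% in vitrified embryos. Across the 78 genes the TE and whole-embryo differences had a Pearson correlation of 0.71 and a Spearman correlation of 0.69, against 0.55 and 0.53 across all 10599 tested genes. These are descriptions across genes, which are not independent replicates, and genes of both sets share the libraries.

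**Figure D4:**
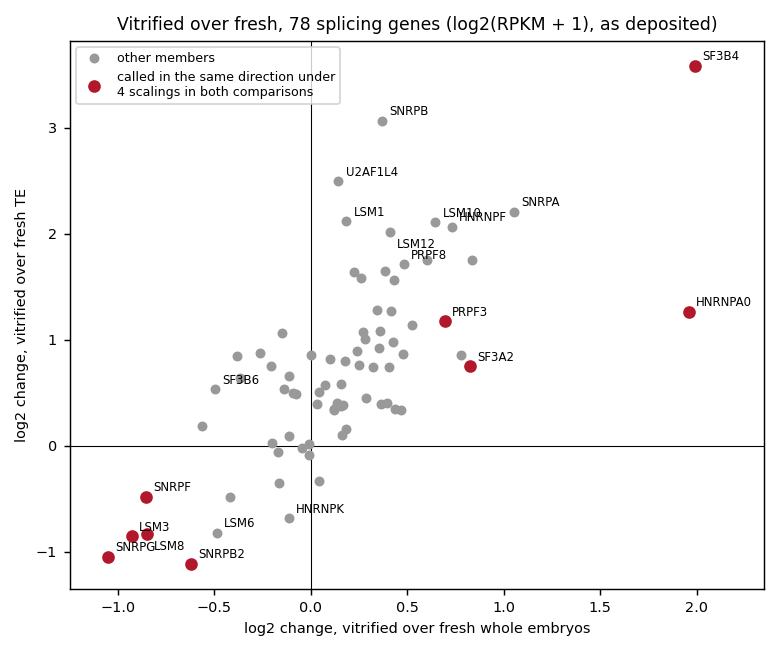
Difference of vitrified over fresh TE (vertical) against that of vitrified over fresh whole embryos (horizontal) for the 78 splicing genes, on log2(RPKM + 1) as deposited. The 9 red points, 4 at the upper right and 5 at the lower left, were called in the same direction under all 4 scalings in both comparisons. This joint count was not made over all tested genes. HNRNPA0 and SF3A2, among the 4, passed the read filter through vitrified libraries alone.

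The difference of the 2 vitrification effects (whole embryo minus TE) was tested directly. It passed for 42 of the 78 genes, 41 with a smaller or more negative value in whole embryos and 1 (HNRNPK) with a larger one. These are 52.6% and 1.28% of the 78, beside 28.4% and 3.98% of all tested genes, of which 32.3% passed in either direction. The split depended on the scaling: 19 were smaller and 7 larger per M table reads (16.5% and 9.22% of all genes), 14 and 13 by median ratios (13.2% and 14.0%), and 13 and 13 by quantiles (11.3% and 19.5%). Under all 4 scalings 13 were smaller and 1 was larger, 16.7% and 1.28%, beside 10.8% and 3.72% of all genes. Leaving out either vitrified embryo lowered the 13, as it did the number among all tested genes. HNRNPK (the larger one) was lost both times. The smallest p were those of PRPF8 (−1.23, adjusted p = 1.7e-05), SNRPB (−2.70, adjusted p = 3.1e-05), HNRNPF (−1.34, adjusted p = 3.5e-05), LSM1 (−1.94, adjusted p = 3.8e-05) and U2AF1L4 (−2.35, adjusted p = 4.4e-05). SNRPB had 41.0 and 57.5 RPKM in vitrified embryos, against 17.5, 45.4 and 53.9 in fresh embryos, and LSM1 had 11.0 and 13.2 against 7.04, 11.3 and 14.4. These ranges overlap in part, and in both genes the 5 fresh TE samples were the lowest of all 20. HNRNPK stood at 5.34 and 5.44 RPKM in vitrified embryos, between the 4.71 and 8.38 of fresh embryos, so its low level was seen in vitrified TE and not in vitrified embryos (difference of effects 0.57, adjusted p = 0.045). This call was lost in 14 of the 20 fits that each left out 1 library, those without either vitrified embryo among them, and with the near-identical fresh TE libraries averaged. Fewer genes passed when either vitrified embryo was left out, of the 78 and of all tested genes alike.

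Whole embryos hold epiblast and hypoblast beside TE, and fresh whole embryos were compared with fresh TE. This comparison uses the same 5 fresh TE libraries as the first, so their results are not independent. The summed epiblast markers were 17.3 to 60.1 reads per M in fresh embryos and 5.38 to 11.5 in fresh TE, and the hypoblast markers 1076 to 1899 and 285 to 609. In fresh embryos 58 of the 78 genes were higher, 2 were lower and 18 did not pass, 74.4% and 2.56%, beside 60.0% and 5.97% of all tested genes. Under all 4 scalings 21 were higher and 2 lower, 26.9% and 2.56% against 23.3% and 5.96%. Nearly all lower calls among the tested genes held here too, 632 of 633, so the scalings were hardly a check for them. Without fresh embryo 4, 57 were higher and 5 lower, beside 6317 and 701 of all 10599 tested genes. HNRNPH2, HNRNPM and SNRPG were then added to the lower ones. By median ratios the split was 24 higher and 27 lower, beside 30.0% and 25.0% of all genes. Per M table reads it was 35 and 13, beside 39.7% and 16.0%, and by quantiles 23 and 29, beside 23.6% and 34.7%. The ranges of the groups did not overlap in 46 of the 78 genes (59.0%), beside 51.4% of all tested genes, of which 66.0% were called in either direction.

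The rise was largest in SNRPB (3.08, adjusted p = 1.5e-09), U2AF1L4 (2.71, adjusted p = 2.2e-09) and LSM1 (2.17, adjusted p = 2.5e-09). U2AF1L4 averaged 8.79 ± 2.47 RPKM in fresh embryos and 0.453 ± 0.157 in fresh TE. SNRPC (1.93), SNRPN (1.43), LSM10 (1.60), LSM12 (1.64), HNRNPF (1.64), SRSF5 (1.36) and SRSF6 (1.55) rose as well and held under all 4 scalings. HNRNPC, an hnRNP that packages nascent transcripts, averaged 1.77 ± 0.312 RPKM in fresh embryos and 0.387 ± 0.0295 in fresh TE (0.99, adjusted p = 4.8e-09). PRPF38A (0.87) and PRPF8 (1.01) also held, whereas HNRNPU (1.16), PRPF3 (0.57), U2AF1 (0.96) and SF3B1 (0.94) did not pass under quantile scaling.

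SF3B6, the SF3B subunit next to the branch-point adenosine, had 25.7, 27.2 and 37.2 RPKM in fresh embryos, against 8.31, 8.20, 10.2, 10.2 and 12.8 in fresh TE (1.47, SE 0.14, adjusted p = 4.9e-08). In vitrified TE it had 11.6 to 20.03 RPKM. SRSF10, an SR protein that can repress splicing, had 8.56, 10.2 and 14.4 RPKM in fresh embryos, against 4.06, 3.14, 3.11, 3.36 and 3.19 in fresh TE (1.46, adjusted p = 2.0e-07). SF3B4 averaged 8.44 ± 4.31 RPKM in fresh embryos and 1.22 ± 0.472 in fresh TE (1.98, adjusted p = 1.7e-06). Of the 9 genes that were lower in vitrified TE, only SNRPB2 was also lower in fresh embryos than in fresh TE (−0.52, adjusted p = 0.0019), at 8.75 ± 1.80 and 12.9 ± 1.99 RPKM in fresh embryos and fresh TE. The other one lower in fresh embryos was PRPF19, the ubiquitin ligase of the Prp19 complex, at 0.814 ± 0.244 RPKM in fresh embryos and 1.75 ± 0.535 in fresh TE (−0.58, adjusted p = 0.0090). Its adjusted p was 0.061 with the near-identical fresh TE libraries averaged. SNRPF was slightly higher in fresh embryos as deposited (0.36), and LSM3, LSM6, LSM8, SNRPG, HNRNPK, HNRNPH2 and HNRNPM did not pass.

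Vitrified whole embryos against vitrified TE gave 12 genes higher, 2 lower and 64 that did not pass, 15.4% and 2.56% beside 15.3% and 3.59% of all tested genes (18.9% in either direction). The split was 7 higher and 2 lower per M table reads, beside 898 and 353 of all 10599 tested genes. It was 4 and 2 by median ratios, beside 329 and 268 of all genes, and 2 and 2 by quantiles, beside 275 and 219. Under all 4 scalings SRSF10 and HNRNPA0 were higher and HNRNPUL1 and SF3B2 lower, 2.56% each way, beside 2.42% and 1.76% of all genes. SRSF10 had 10.1 and 10.5 RPKM in vitrified embryos and 3.68, 5.67 and 7.16 in vitrified TE (0.87, adjusted p = 0.010), the same direction as among fresh samples. SF3A3 (0.54, adjusted p = 0.0044), HNRNPC (0.43, adjusted p = 0.011) and HNRNPA0 (1.11, adjusted p = 0.012) were higher too. HNRNPUL1 was lower, at 0.830 and 1.06 RPKM in vitrified embryos and 1.46, 1.74 and 2.47 in vitrified TE (−0.55, adjusted p = 0.011). None of these calls passed without vitrified embryo 2, in a fit that left 1 vitrified embryo and in which few of all tested genes passed. Some were also lost without vitrified embryo 1. The median difference of the 78 genes was 0.02 without vitrified embryo 2, 0.23 without vitrified embryo 1 and 0.10 with both. For all tested genes these medians were 0.01, 0.05 and 0.03.

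Variation among samples of a group was of moderate size. The median coefficient of variation over the genes was 14.3% in vitrified embryos, 20.2% in fresh embryos, 13.8% in vitrified TE and 17.7% in fresh TE (77 genes there, since HNRNPA0 was at 0). Fresh embryo 4 was the highest or the lowest of the 6 in 58 of the 78 genes. The other fresh embryos were so in 4 to 36 genes. Such extremes were not counted over all tested genes.

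Other genes of the splicing machinery were followed in 7 lists with 193 symbols, of which 187 were found and 179 tested. In vitrified against fresh TE 150 were higher, 4 lower and 25 did not pass, and 55 and 4 held under all 4 scalings. Among all tested genes 69.0% were higher and 6.66% lower, and 25.4% and 6.66% held. The 179 genes had a median difference of 0.48 as deposited and 0.03 by median ratios. All 37 spliceosomal helicases and Prp19 complex genes were higher as deposited, 9 of them under all 4 scalings, among them DDX39B (2.07) and AQR (0.22), both helicases. Of 24 U1, U5 and minor snRNP genes 21 were higher, with SNRNP200 (1.13), the U5 helicase that unwinds U4 from U6, among them, and 3 did not pass. Of 16 U2-associated genes 9 were higher and 1 lower, with SMNDC1 (1.59) and U2SURP (0.84) among the higher. Among 24 exon junction and export genes 20 were higher and 1 lower, with THOC6 (2.67), a subunit of the THO export complex, and RNPS1 (1.97), which joins the exon junction complex. The 18 SR kinases and SR-like genes had 13 higher and 1 lower, among the higher CLK3 (1.16), a kinase of SR proteins, and SCAF1 (1.18). The 39 alternative splicing regulators had 31 higher and 1 lower, among the higher SFPQ (1.96) and ELAVL1 (1.13). Of 21 genes of the SMN complex and of snRNP assembly 19 were higher, with GEMIN4 (2.32), a subunit of the SMN complex, and CLNS1A (1.13), which handles Sm proteins before assembly. The genes named from these lists held under all 4 scalings, each with an adjusted p of at most 3.1e-08. In whole embryos 59 of the 179 were higher and 4 lower in vitrified samples, where 26.9% and 3.94% of all tested genes were. In fresh embryos 130 were higher and 5 lower than in fresh TE, where 60.0% and 5.97% of all tested genes were.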

How the data were processed

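The deposited table gave RPKM values with an offset of 0.01, which was subtracted. That the values are RPKM per genomic span was inferred from them: 94.4 to 95.8% of values under 1000 reads lay within 0.1 of a whole multiple of a step per library, taken as 1 read. Per the submitters' processing notes the authors used FastQC, STAR 2.5.3a with UMD3.1, and Partek; aligner options and the rule by which reads were counted are not given here. Genes with at least 10 reads in at least 2 libraries were tested on log2(RPKM + 1) with limma 3.58.1 (R 4.3.3, statmod 1.5.0; lmFit, eBayes with trend and robust), with a mean per group, a shared spread, Benjamini-Hochberg adjustment over 10599 genes and a threshold of 0.05. The test was also run on simulated reads with known changes. That simulation had no shift of whole libraries and no near-identical libraries, so it does not bear on either. Samples were grouped by title. The number of reads sets the precision: limits based on reads hold counting error alone.

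The genes, lists and rules were chosen with earlier results of these data known. Named genes are, per family, up to 3 with the smallest p among those higher and 3 among those lower in vitrified TE, and likewise in fresh embryos, against fresh TE, the 5 smallest p in the other 3 comparisons, all genes lower in vitrified TE under 4 scalings, and 2 per list (1 gene so chosen is not reported here); any others were chosen after their values were seen. Equal replicate numbers did not pair samples: deviations of same-numbered samples correlated at −0.19 to 0.31. Alternatives were scaling, pseudocount, filter, samples in the fit, a replicate block, averaging near-identical libraries and leaving out each library. No sequence was used.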

Additional observations from a re-analysis of the deposited data

Results flagged for a closer look

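In 8 of 117 gene and group combinations of 5 to 7 samples, 1 sample stood far from the rest of its group; chance flags about 1 in 20. In fresh embryos these were HNRNPH2 (7.06 RPKM), HNRNPM (9.87) and U2AF1L4 (3.98) in fresh embryo 4 and HNRNPC (2.39) in fresh embryo 3. In vitrified TE they were PRPF3 in sample 5 (2.88), SNRPB2 in sample 6 (6.60) and U2AF2 in sample 4 (0.678), and in fresh TE SRSF10 in sample 1 (4.06).

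The vitrification effect differed between whole embryos and TE (effect in whole embryos minus effect in TE, limma on log2(RPKM + 1), adjusted p under 0.05) for PRPF8 (−1.23), SNRPB (−2.70), HNRNPF (−1.34), LSM1 (−1.94) and U2AF1L4 (−2.35). All draw on the fresh TE libraries, which stood apart from the other 15, and on only 2 vitrified embryos. The part of either in these differences was not tested.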

How the results depend on the processing

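For vitrified against fresh TE, genes called higher numbered 36 per M table reads, 28 by median ratios and 27 by quantiles, and genes called lower 17, 32 and 30. For fresh embryos against fresh TE these were 35, 24 and 23 higher and 13, 27 and 29 lower, with 1 lower (also under all 4 scalings) when near-identical libraries were averaged. For vitrified against fresh embryos 12 were called by median ratios and 13 by quantiles or with only the groups compared. For vitrified embryos against vitrified TE 9, 6 and 4 were called under the 3 scalings, 9 with a pseudocount of 0.1 and 4 with only the groups compared. For the difference of effects the scalings gave 26, 27 and 26. SRSF2 in vitrified against fresh TE turned to −0.012 by median ratios. Averaging the near-identical fresh TE libraries gave 59 higher and 8 lower in vitrified against fresh TE. Under all 4 scalings it left 22 higher and 8 lower, beside 2405 and 616 of the 10599 tested genes. Leaving out 1 library gave 58 to 61 higher and 8 to 10 lower in vitrified against fresh TE (23 to 26 and 8 to 10 under all 4 scalings), and 54 to 59 higher and 2 to 5 lower in fresh embryos against fresh TE (20 to 22 and 2 to 5). It gave 8 to 27 calls in vitrified against fresh embryos, 0 to 18 in vitrified embryos against vitrified TE and 22 to 44 for the difference. Of 67 named gene and comparison pairs, 10 lost their call by quantiles and 5 by median ratios. The cause was not tested.

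With the replicate number as a block, which the pairing check did not back, 58 genes were higher and 8 lower in vitrified against fresh TE, 56 and 2 in fresh embryos against fresh TE, 15 were called in vitrified against fresh embryos, 2 in vitrified embryos against vitrified TE and 24 for the difference of effects.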
